A study of Danio rerio with 6 samples.

Results

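A group of 109 genes, of 32266 Ensembl genes counted, was nearly absent from a single sample of zebrafish pax8:DsRed-positive cells, the sample labelled control III. The genes were chosen by their levels in the 3 control samples, expressed as CPM, the counts of a gene scaled to a common total per sample. Each had at least 5 CPM in both controls I and II, and in control III at most 10% of the lower of those values. The 109 genes were 1.05% of the 10399 genes that reached the minimum in controls I and II. The genes hnf1ba, hnf1bb and cdh17 met the same thresholds but were left out by the rule, which also leaves out wt1a and a block of hoxb genes, none of which met them. The levels in the controls therefore chose the genes, and differences among the controls are given as a description without a test. The levels in the 3 atoh1b-MO samples took no part in the choice. They are compared and tested against controls I and II, which did, so low values relative to these controls can follow in part from the choice.

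The study sorted DsRed-positive cells from heterozygous pax8:DsRed embryos of the AB wild-type background at late OEPD stages (6-9-somites) by flow cytometry. The OEPD is the otic-epibranchial progenitor domain, which forms the inner ear and the epibranchial placodes, and the transgene also marks the nephric anlagen. Controls I, II and III came from wild-type embryos, and atoh1b-MO II, IV and V from wild-type embryos injected at the 1-cell stage with a morpholino against atoh1b, an antisense oligomer that blocks production of this proneural transcription factor. For the injected samples the genotype label reads dlx3b/4b knockdown, but titles and study name atoh1b, and the titles were followed. The labels do not say how many embryos were pooled per sample, and a sorted sample holds whatever cells passed the DsRed gate. The study set 1 divergent control aside. The level of the targeted gene was not examined here, so the labels of the injected samples were not checked against it.

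In the zebrafish embryo, the intermediate mesoderm forms the pronephros, the larval kidney, under transcription factors of the Pax, Lhx and Hnf families. The lateral plate mesoderm lies beside it on either side of the trunk. It gives rise to primitive blood and to endothelial cells, which share early regulators such as the bHLH factor Tal1, its partner Lmo2 and ETS factors such as Etv2 and Fli1. Gene symbols in capitals are written as human gene names in the gene table, and zebrafish paralogs can share such a name.

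Total counts ranged from 24120228 to 37169850 per sample, and between 20353 and 22678 genes were detected. Control III stood apart from the other samples in markers of the hindbrain and neural tube. Its level of hindbrain and neural tube markers was above the mean of controls I and II for 16 of 16 markers with at least 5 CPM in both, with a median of 637% of that mean. The summed level of that list was 2006 CPM in control III, 336 and 404 CPM in controls I and II, and 1046, 321 and 418 CPM in atoh1b-MO II, IV and V. Markers of epidermis and ionocytes had a median of 197% in control III. Their summed levels were 2711, 8406 and 10172 CPM in controls I, II and III and 5778, 3075 and 3412 CPM in atoh1b-MO II, IV and V. For this list control II lay nearer to control III than to control I, so the median of 197% is relative to the mean of unlike controls. Among the atoh1b-MO samples, atoh1b-MO II had the highest summed level of both lists. Whether these differences in the makeup of the samples had a part in the levels described here was not tested. In bulk samples such as these, fewer cells of a type and less RNA per cell cannot be told apart.

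Among the tissues whose markers were listed, the 109 genes marked blood and vessel precursors of the lateral plate most often, followed by the pronephros. This order by number depends on the rule, which left out hnf1ba, hnf1bb and cdh17, nephric markers that met the thresholds. With these genes the nephric list would come first by number, but its share would stay below that of the lateral plate list. Of 18 markers of lateral plate, blood and vessel with at least 5 CPM in controls I and II, 7 were among the 109 genes (LMO2, TAL1, FLI1, gata1a, SOX7, drl and hbae3). The list also names etv2, which the gene table calls etsrp and which was therefore not matched. It is among the 109 genes but is not counted in any value of this list. The median level of the 18 markers in control III was 11.1% of the mean of controls I and II. All 18 were below 50% of that mean, and the highest stood at 47.1%. Of 40 nephric markers, 6 were among the 109 genes (PAX8, lhx1a, HNF4A, SIM1, FOXJ1 and PPARGC1A), with a median of 29.9% for the whole list and 24 of 40 below 50%. Other nephric markers went the other way in control III, with 9 of the 40 above 100% of the mean of controls I and II and 4 above 200%. Of 27 OEPD markers, only PAX8 was among the 109 genes, and it stands on the nephric list as well. The median of the OEPD list in control III was 47.3%, with 17 of 27 below 50%. These list medians include genes that the rule chose for their low level in control III. Without the 109 genes they were 16.4% for the lateral plate list, 44.7% for the nephric list and 48.0% for the OEPD list. The left-out genes hnf1ba, hnf1bb and cdh17 still count there as nephric markers. No marker of the tail bud and muscle list (17 genes), the Hox and Cdx list (37 genes), the neural crest list (4 genes), the epidermis list (14 genes) or the hindbrain list (16 genes) was among the 109. The Hox and Cdx list still had a median of 49.2% in control III, with 19 of 37 below 50%, close to the OEPD list. The tail bud and muscle list had a median of 110.1% and the neural crest list 161.7%. The remaining gene among the 109 that was matched to a list was hhex. It was placed on a list of endoderm and notochord genes and is also expressed in blood and vessel precursors. The 4 genes of that list at the minimum had a median of 325.7% in control III, with 3 above 200%. The summed level of the list was 184, 243 and 770 CPM in controls I, II and III.

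**Figure D1:**
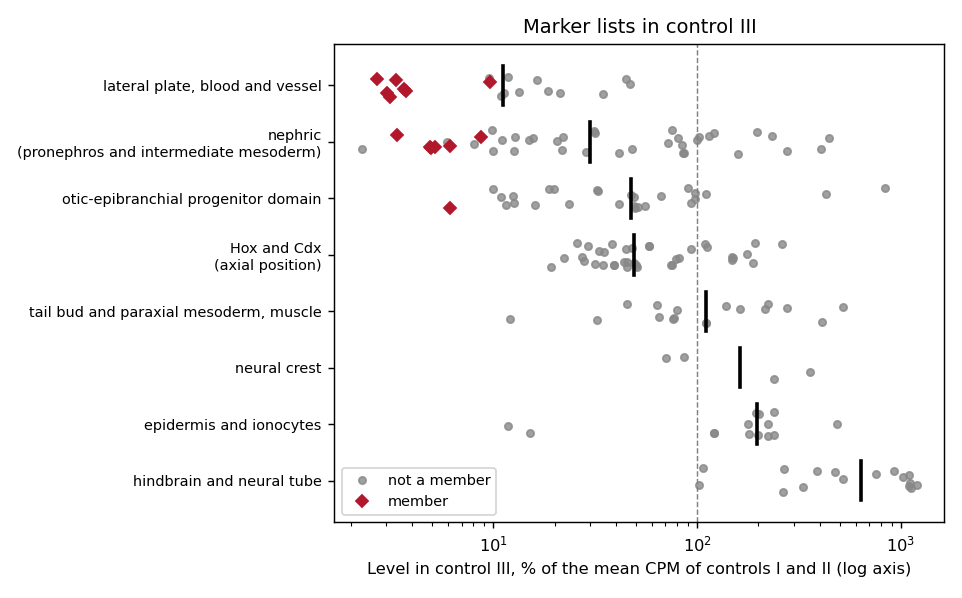
Level of each marker gene in control III as a percent of its mean CPM in controls I and II (log axis), by marker list, for genes with at least 5 CPM in both. The list of endoderm and notochord genes is not drawn. Red diamonds are genes among the 109 and grey points other genes, black bars are list medians (11.1% for lateral plate, blood and vessel and 637% for hindbrain and neural tube) and the dashed line marks 100%.

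The summed level of the lateral plate list was 4552, 3792 and 330.0 CPM in controls I, II and III, and 2360.4, 3441 and 4079 CPM in atoh1b-MO II, IV and V. That sum is carried largely by the 7 markers the rule chose. The 17 genes of the list outside the 109 summed to 965, 854 and 217 CPM in controls I, II and III and to 709, 1012 and 1251 CPM in atoh1b-MO II, IV and V. Markers of blood and vessel precursors were thus measured in all 6 samples, although the labels name only OEPD and nephric anlagen as the cell type. Nephric markers summed to 5191, 5345 and 2049 CPM in controls I, II and III and to 4365, 5467 and 5438 CPM in atoh1b-MO II, IV and V.

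Together the 109 genes took 0.997% of the counts of control I (95% Wilson interval 0.994% to 1.001%) and 0.880% of control II (0.877% to 0.883%). In control III they took 0.0423% (0.0415% to 0.0430%). They took 0.566% of the counts of atoh1b-MO II (0.563% to 0.569%), 0.811% of atoh1b-MO IV (0.807% to 0.814%) and 0.947% of atoh1b-MO V (0.944% to 0.951%). The share in atoh1b-MO II thus lay between that of control III and those of the other 4 samples, and the share in atoh1b-MO V lay between those of controls I and II. These intervals cover counting error only.

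All 109 genes were present in every atoh1b-MO sample. The count of a member was never below 58 in any sample other than control III, where it ranged from 1 to 1418. In each of the 109 genes the lowest atoh1b-MO sample exceeded control III, by at least 5-fold in 107 genes and at least 10-fold in 78, with a median of 12.6-fold. The rule required a low value in control III, so these ratios follow in part from the choice of genes and test nothing. The median level relative to the mean of controls I and II was 5.04% in control III, 63.6% in atoh1b-MO II, 91.3% in atoh1b-MO IV and 112.3% in atoh1b-MO V. Over all 10399 genes at the minimum the corresponding medians were 92.2%, 99.7%, 100.6% and 102.4%. The number of the 109 genes below the mean of controls I and II was 101 in atoh1b-MO II, 72 in atoh1b-MO IV and 39 in atoh1b-MO V. When the thresholds of the rule were applied to each atoh1b-MO sample in place of control III, 0 genes met them, against 112 for control III before the left-out genes were removed.

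**Figure D2:**
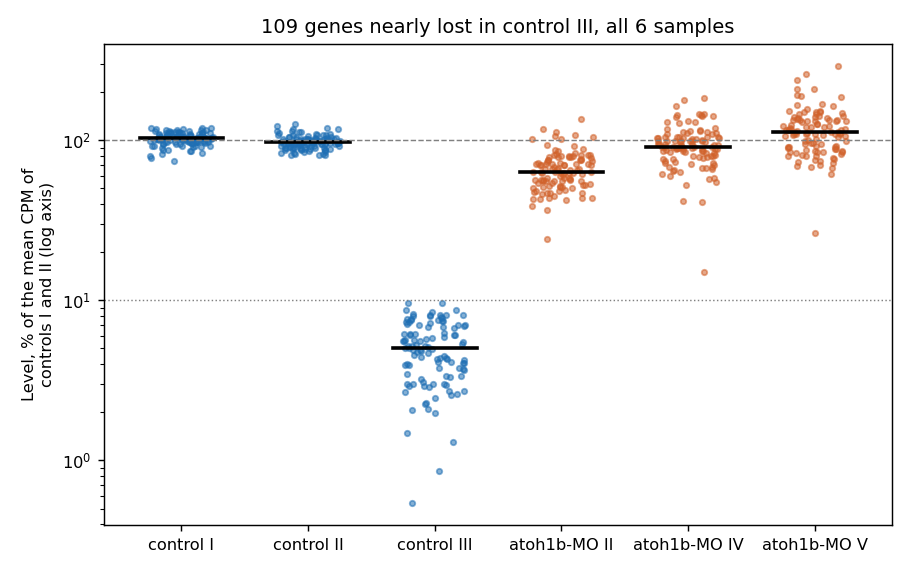
Levels of the 109 genes in each of the 6 samples as a percent of the mean CPM of controls I and II (log axis). Each point is a gene, black bars are medians (5.04% in control III and 63.6%, 91.3% and 112.3% in atoh1b-MO II, IV and V), the dashed line marks 100% and the dotted line 10%.

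Within the atoh1b-MO group the genes followed a common order. The level was lowest in atoh1b-MO II for 100 of the 109 genes (91.7%, against 41.5% of the 10399 genes), and highest in atoh1b-MO V for 81 (74.3%, against 36.8%). The same sample, atoh1b-MO II, held the highest summed level of hindbrain markers in its group. For a description by role the genes were sorted by known function into 17 regulators of blood and vessel formation, 13 products of vessel cells, 5 products of blood cells, 9 nephric genes, 6 other regulators and ligands and 59 genes without a role group. These groups, and every gene named beyond the naming rule, were chosen after their values were seen. Atoh1b-MO V was the highest sample of its group for 35 of 35 blood and vessel genes, whereas atoh1b-MO IV was the highest for 7 of 9 nephric genes and 5 of 6 other regulators. Over the 10399 genes atoh1b-MO IV was the highest in 30.6%. The medians of the nephric genes in atoh1b-MO IV and V were close, at 108.8% and 108.5% of controls I and II.

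**Figure D3:**
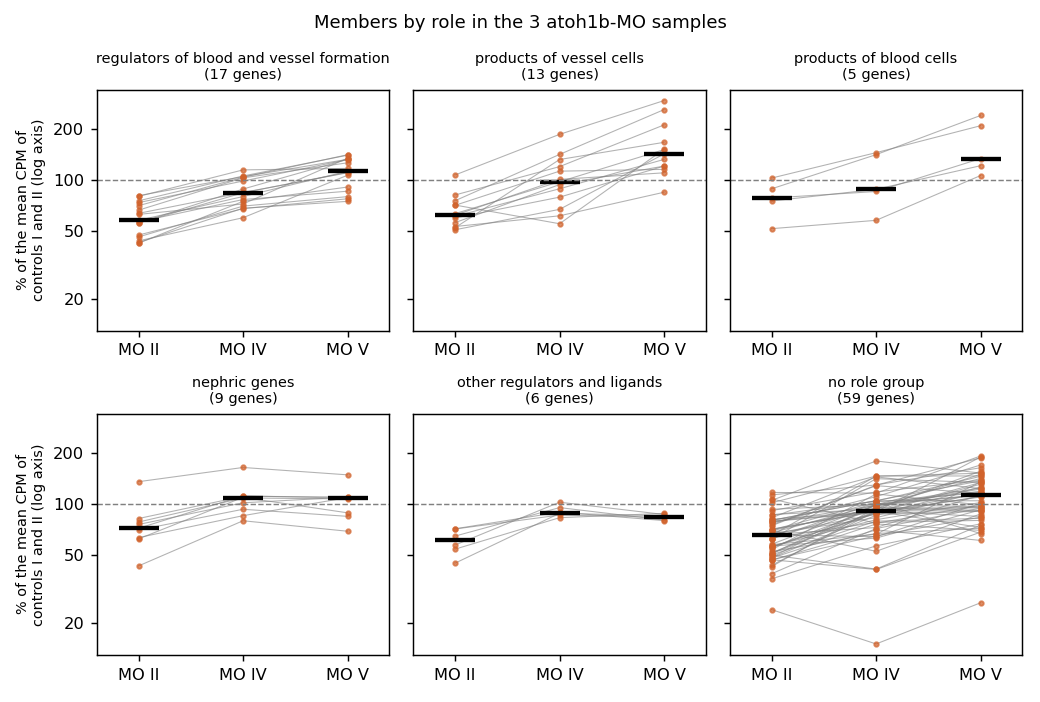
Levels of the 109 genes in the 3 atoh1b-MO samples (horizontal axis) as a percent of the mean CPM of controls I and II (log axis), by role group. Thin lines join the values of a gene, black bars are group medians and the dashed line marks 100%; the medians of blood and vessel regulators run from 57.8% in atoh1b-MO II to 112.3% in atoh1b-MO V, and those of nephric genes from 72.2% in atoh1b-MO II to 108.5% in atoh1b-MO V.

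The regulators of blood and vessel formation included LMO2, TAL1, FLI1, etsrp, gfi1aa and gata1a. The median level of all 17 was 3.66% of controls I and II in control III, and 57.8%, 83.9% and 112.3% in atoh1b-MO II, IV and V. Scaled by exon length, LMO2 stood at 804 CPM per kb in controls I and II, TAL1 at 285, etsrp at 249 and gfi1aa at 226 CPM per kb.

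LMO2 (chr18:38307869-38315657, plus strand) encodes a LIM-only protein that bridges DNA-binding factors in the blood stem cell complex. It measured 1620.1, 1281 and 48.6 CPM in controls I, II and III and 621, 988 and 1084 CPM in atoh1b-MO II, IV and V. All 3 atoh1b-MO samples lay below both controls I and II and far above control III. Its partner TAL1 (chr22:16509305-16519060, plus strand), the bHLH factor required for primitive blood, measured 837, 671 and 28.3 CPM in the controls and 357, 510.2 and 583 CPM in atoh1b-MO II, IV and V. The ETS factor FLI1 (chr18:48429318-48493178, plus strand), which acts in both blood and endothelial precursors, measured 549, 463 and 15.2 CPM in the controls and 287, 388 and 434 CPM in the atoh1b-MO samples. For both genes, too, the 3 atoh1b-MO samples were below controls I and II without overlap, and atoh1b-MO II was the lowest. SOX7 (chr20:19167013-19178841, plus strand), an endothelial SoxF factor, was the last regulator with this order, at 153, 120.1 and 5.004 CPM in the controls and 63.2, 95.8 and 109 CPM in the atoh1b-MO samples.

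The remaining 13 regulators overlapped between the groups. The gene etsrp (chr16:42058781-42063826, minus strand), also known as etv2 and among the earliest regulators of vessel formation in zebrafish, measured 411, 313 and 29.1 CPM in controls I, II and III and 154, 271 and 329 CPM in the atoh1b-MO samples. Here atoh1b-MO V lay between controls I and II, and the other atoh1b-MO samples lay below both. Its neighbour fli1rs, which starts 4126 bases away on the other strand, measured 39.4, 35.4 and 2.09 CPM in the controls and 20.8, 33.001 and 49.3 CPM in the atoh1b-MO samples, so that atoh1b-MO V was above both controls. ERG (chr10:160347-167782, minus strand), another endothelial ETS factor, measured 24.9, 23.3 and 1.92 CPM in the controls and 10.6, 14.4 and 25.6 CPM in the atoh1b-MO samples. Its level in atoh1b-MO V was above both controls and in the other 2 atoh1b-MO samples below them.

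Among the overlapping genes were regulators of red and white blood cells. The erythroid factor gata1a (chr11:25174298-25181240, minus strand) measured 327, 299 and 8.43 CPM in controls I, II and III and 235, 329 and 436 CPM in atoh1b-MO II, IV and V, with atoh1b-MO II below and the other 2 samples above both controls. The zinc-finger repressor gfi1aa (chr2:10983145-11002050, plus strand), active in primitive erythroid cells, measured 366, 296 and 6.82 CPM in the controls and 191, 264 and 371 CPM in the atoh1b-MO samples. CEBPA (chr7:37813728-37816607, minus strand), a factor of myeloid cells, measured 228, 205 and 9.32 CPM in the controls and 137, 182 and 238 CPM in the atoh1b-MO samples. In both genes atoh1b-MO V exceeded controls I and II and the other 2 atoh1b-MO samples lay below them.

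RUNX1 (chr1:1241694-1253961, minus strand), needed for definitive blood stem cells, was the gene with the greatest ratio of the lowest atoh1b-MO sample to control III. It had 2 counts in control III, or 0.0685 CPM, against 6.38 and 9.58 CPM in controls I and II and 6.37, 9.12 and 9.31 CPM in the atoh1b-MO samples. The ratio of controls I and II to control III was 119, with a 95% counting interval of 32.9 to 988 that describes the error of so low a count and, since the rule chose the gene on these values, tests nothing. The atoh1b-MO values overlapped those of controls I and II. KLF3 (chr1:17586972-17922126, minus strand), a Kruppel-like factor of red cells in mice, measured 86.0, 79.6 and 6.204 CPM in the controls and 54.9, 84.99 and 104 CPM in the atoh1b-MO samples. The annotated span of KLF3 overlaps 3 genes on the same strand and 1 on the other, and reads of these genes may be shared. The homeobox gene hhex (chr12:47695602-47699931, minus strand) measured 46.9, 42.3 and 1.68 CPM in the controls and 24.8, 37.4 and 49.3 CPM in the atoh1b-MO samples, with atoh1b-MO V above both controls.

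The drl cluster, named after draculin, a zinc-finger gene first expressed throughout the zebrafish lateral plate, contributed 4 neighbouring genes on the minus strand of chromosome 5 between positions 60916569 and 60967534. The gene drl measured 41.6, 42.2 and 1.30 CPM in controls I, II and III and 26.2, 30.2 and 56.1 CPM in the atoh1b-MO samples. Its relative drll.3 measured 85.7, 79.7 and 4.73 CPM in the controls and 60.8, 81.3 and 109 CPM in the atoh1b-MO samples. In the same order, drll.1 had 38.2, 35.2 and 1.097 CPM and 25.9, 38.0 and 51.5 CPM, and drll.2 had 26.2, 25.3 and 0.583 CPM and 20.8, 26.9 and 34.0 CPM. All 4 were highest in atoh1b-MO V and lowest, outside control III, in atoh1b-MO II. The span of drll.2 covers drll.1 and drl, and the family is closely related, so the division of reads between these genes is uncertain.

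**Figure D4:**
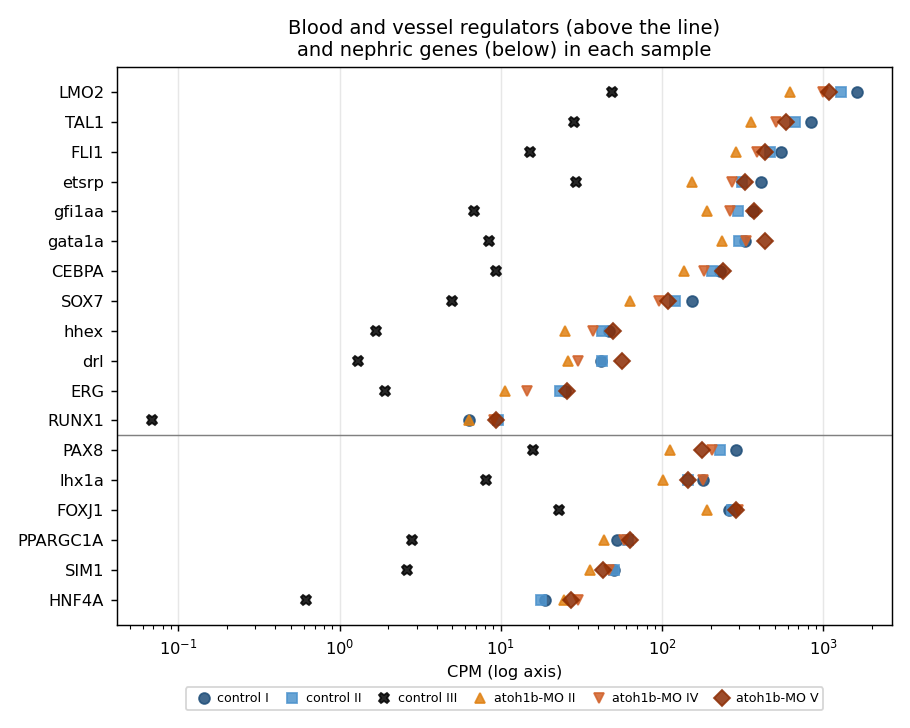
CPM (log axis) of 12 blood and vessel regulators and 6 nephric genes in each of the 6 samples. Black crosses (control III) lie to the left of all other samples in each gene, and orange triangles (atoh1b-MO II) are the lowest of the 3 atoh1b-MO samples in each gene.

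The 13 products of vessel cells had medians of 62.0%, 97.4% and 141.9% of controls I and II in atoh1b-MO II, IV and V, and 4.83% in control III. They included receptors for vascular endothelial growth factor. FLT4 (chr14:15511491-15651094, minus strand) measured 97.2, 108 and 4.46 CPM in controls I, II and III and 62.7, 91.0 and 135 CPM in the atoh1b-MO samples, KDR had 21.7, 23.1 and 1.20 CPM and 11.4, 15.0 and 31.8 CPM, and flt1 had 18.6, 21.6 and 0.583 CPM and 12.0, 15.9 and 24.2 CPM. Each of these receptors was above both controls in atoh1b-MO V and below both in atoh1b-MO II and IV. The co-receptor nrp1b (chr2:43619823-43683302, plus strand) measured 317, 299 and 14.9 CPM in the controls and 191, 309.7 and 338 CPM in the atoh1b-MO samples, and plxnd1, a semaphorin receptor that guides growing vessels, had 73.4, 74.8 and 5.83 CPM and 41.5, 69.5 and 89.2 CPM.

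The highest level relative to controls I and II of all 109 genes was that of stab2 (chr4:10722946-10764698, plus strand), a scavenger receptor of endothelial cells. It measured 15.9, 21.2 and 1.13 CPM in controls I, II and III and 19.8, 34.3 and 54.1 CPM in atoh1b-MO II, IV and V. Atoh1b-MO II lay between controls I and II, and atoh1b-MO IV and V lay above both. The log2 difference between the atoh1b-MO samples and controls I and II was 0.91 (SE 0.36, adjusted p = 0.413) by edgeR's quasi-likelihood test, which does not pass the threshold of 0.1. Without atoh1b-MO II it was 1.20, with an adjusted p of 0.0563. The gene overlaps 1 gene on each strand, and the sources used here do not say whether counting was strand-specific. A similar order was seen for rasip1, needed for vessel lumens in mice, at 6.13, 5.81 and 0.137 CPM in the controls and 4.50, 8.42 and 15.4 CPM in the atoh1b-MO samples, and for clec14a, an endothelial lectin, at 20.6, 22.6 and 1.61 CPM and 17.6, 25.8 and 45.4 CPM. Their lowest value outside control III was in atoh1b-MO II.

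The 5 products of blood cells had medians of 78.2%, 87.9% and 133.3% of controls I and II in atoh1b-MO II, IV and V. The embryonic alpha globin gene hbae3 (chr3:54891985-54893256, minus strand) measured 59.0, 61.6 and 5.79 CPM in controls I, II and III and 61.7, 87.0 and 125 CPM in the atoh1b-MO samples. All 3 atoh1b-MO samples were above both controls, although atoh1b-MO II exceeded control II by a small margin. The transferrin receptor gene tfr1a (chr2:5008604-5034301, minus strand), which supplies iron for haemoglobin, measured 22.2, 32.0 and 2.06 CPM in the controls and 23.97, 38.1 and 64.6 CPM in the atoh1b-MO samples. The log2 difference was 0.55 (SE 0.25, adjusted p = 0.470) for hbae3 and 0.59 (SE 0.36, adjusted p = 0.596) for tfr1a by edgeR, neither of which passed the threshold. Without atoh1b-MO II, hbae3 was called higher (0.76, adjusted p = 0.0811 by edgeR). FGR and BTK encode tyrosine kinases of white blood cells in mammals. FGR measured 259, 254 and 11.7 CPM in the controls and 193, 226 and 311 CPM in the atoh1b-MO samples, and BTK had 50.7, 47.8 and 1.41 CPM and 38.5, 42.0 and 65.6 CPM. In both genes atoh1b-MO V alone exceeded controls I and II. The adaptor gene lcp2b was the only other member of the group.

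The 9 nephric genes had medians of 72.2%, 108.8% and 108.5% of controls I and II in atoh1b-MO II, IV and V, and 5.63% in control III. PAX8 (chr5:71633658-71643280, minus strand), after which the sorting transgene is named, is expressed in both the OEPD and the nephric anlagen. It measured 285, 228 and 15.8 CPM in controls I, II and III and 111, 205 and 178 CPM in atoh1b-MO II, IV and V. All 3 atoh1b-MO samples lay below controls I and II and above control III. The log2 difference from controls I and II was -0.69 (SE 0.23, adjusted p = 0.327) by edgeR, which does not pass the threshold. It passed without the filter on low counts (adjusted p = 0.0401 by edgeR) and by DESeq2 (adjusted p = 0.0975). It did not pass by limma voom (adjusted p = 0.274) or by edgeR with library size alone (adjusted p = 0.358). With a single atoh1b-MO sample left out it did not pass either (adjusted p of 0.202 to 0.463 by edgeR). The cells had been sorted on a reporter named after this gene.

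The LIM-homeobox gene lhx1a (chr15:27770533-27777699, minus strand), an early regulator of the intermediate mesoderm, measured 180.1, 145 and 8.09 CPM in controls I, II and III and 102, 178 and 145 CPM in the atoh1b-MO samples. HNF4A (chr23:25906148-25939315, plus strand), a nuclear receptor of the proximal tubule, measured 18.9, 17.7 and 0.617 CPM in the controls and 24.8, 30.0 and 27.2 CPM in the atoh1b-MO samples. It was the only nephric gene with all 3 atoh1b-MO samples above controls I and II, and its log2 difference was 0.53 (SE 0.14, adjusted p = 0.232) by edgeR. By DESeq2 it was called higher (0.53, adjusted p = 0.0443). It was not called by limma voom (adjusted p = 0.203) or by edgeR without the filter on low counts (adjusted p = 0.165). SIM1 (chr16:1446530-1479135, minus strand), which acts in the tubule in zebrafish, measured 50.5, 50.4 and 2.60 CPM in the controls and 35.6, 47.1 and 42.8 CPM in the atoh1b-MO samples, all 3 below controls I and II. Its span overlaps another gene.

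FOXJ1 (chr3:60637106-60838792, plus strand), the regulator of motile cilia, measured 259, 269 and 22.9 CPM in controls I, II and III and 191, 295 and 286 CPM in the atoh1b-MO samples. Its annotated span overlaps CACNG1 and HELZ, and reads of these genes may be shared. PPARGC1A (chr7:70128523-70219243, minus strand), a coactivator of mitochondrial genes, measured 52.9, 61.3 and 2.81 CPM in the controls and 43.4, 58.1 and 62.8 CPM in the atoh1b-MO samples. For both genes atoh1b-MO II was below and atoh1b-MO V above both controls. The aminopeptidase gene XPNPEP2, at 7.32, 5.35 and 0.446 CPM in the controls and 5.22, 7.05 and 6.98 CPM in the atoh1b-MO samples, the peptidase gene dpp4 and the water channel gene AQP8 completed the group, and all 3 were lowest in atoh1b-MO II within their group.

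The 6 other regulators and ligands were lbx2, mnx2b, MNX1, KLF9, FGF10 and SOST, with medians of 61.2%, 89.1% and 84.6% of controls I and II in atoh1b-MO II, IV and V. The homeobox gene lbx2 (chr14:5079021-5082166, plus strand) measured 337, 231 and 14.7 CPM in controls I, II and III and 185, 271 and 229 CPM in the atoh1b-MO samples. Atoh1b-MO IV lay between controls I and II and the other 2 atoh1b-MO samples lay below both. The homeobox gene MNX1 measured 95.9, 65.2 and 4.08 CPM in the controls and 57.6, 69.5 and 67.5 CPM in the atoh1b-MO samples. FGF10, a growth factor of limb, lung and ear development in vertebrates, had 39.1, 26.6 and 1.34 CPM and 17.9, 27.4 and 29.0 CPM. SOST, an inhibitor of Wnt and BMP signals, had 70.9, 68.7 and 2.74 CPM and 31.4, 61.7 and 59.5 CPM and was the only gene of the group with all 3 atoh1b-MO samples below both controls.

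The 59 genes without a role group had medians of 65.5%, 91.3% and 113.3% of controls I and II in atoh1b-MO II, IV and V, close to those of all 109. Those with the highest CPM, not scaled by length, were RBM47 (chr1:18660111-18709878, minus strand), an RNA-binding protein gene, with 403, 477 and 23.99 CPM in controls I, II and III and 411, 437 and 500.0 CPM in the atoh1b-MO samples, and morc3b (chr1:46487297-46510931, plus strand), with 355, 322 and 6.65 CPM and 189, 303 and 392 CPM. In both genes only atoh1b-MO V exceeded controls I and II. Among the genes with the lowest atoh1b-MO level relative to controls I and II were ADCYAP1R1, a receptor gene for the neuropeptide PACAP, with 12.2, 13.5 and 0.754 CPM in the controls and 6.05, 5.31 and 8.79 CPM in the atoh1b-MO samples, and tafa3b with 9.06, 7.10 and 0.377 CPM and 4.06, 3.36 and 6.09 CPM. So were igfbp1b, which encodes a binding protein of insulin-like growth factors, with 6.86, 5.81 and 0.0343 CPM and 2.31, 3.61 and 4.86 CPM, and grapa with 12.1, 11.2 and 0.480 CPM and 5.46, 8.21 and 7.12 CPM. In these 4 genes the 3 atoh1b-MO samples lay below both controls, with atoh1b-MO IV lowest in ADCYAP1R1 and tafa3b and atoh1b-MO II lowest in igfbp1b and grapa. The control III value of igfbp1b rested on a single count.

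The gene with the lowest atoh1b-MO level relative to controls I and II was si:ch211-11n16.3 (chr15:14310146-14312090, minus strand), to which the files give no function. It measured 18.5, 15.0 and 0.720 CPM in controls I, II and III and 4.02, 2.53 and 4.41 CPM in atoh1b-MO II, IV and V. The 3 atoh1b-MO samples lay well below controls I and II and were still 3.51-fold or more above control III. It fell by 2.24 on the log2 scale (SE 0.27) between controls I and II and the atoh1b-MO samples, with an adjusted p of 0.0187 by edgeR's quasi-likelihood test. Without control I the adjusted p was 0.188.

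Set against the spread between samples, 1 of the 109 genes passed the test between controls I and II and the atoh1b-MO samples. With control III set aside, edgeR tested 18397 genes and called 110 of them at an adjusted p below 0.1, or 0.598%, of which 27 were lower (0.147%) and 83 higher (0.451%) in the atoh1b-MO samples. All 109 genes passed the filter on low counts, 1 was called lower (si:ch211-11n16.3) and 0 were called higher. At an unadjusted p below 0.05 in edgeR there were 19 lower and 2 higher among the 109 (19.3%), against 11.2% of all genes tested, with 4.54% of all genes lower at that p. Over the 10399 genes at the minimum, which met the same minimum of 5 CPM but were not matched in level, the share was 13.2%, with 743 lower and 626 higher. The median log2 difference of the 109 genes was -0.21, and 81 of 109 were negative (74.3%), beside a median of -0.03 and 5773 negative values (55.5%) over the 10399 genes at the minimum. Controls I and II helped to choose the genes, so an excess of lower values among the 109 can follow in part from the choice. The regulators with the smallest adjusted p were TAL1 (-0.69, SE 0.19, adjusted p = 0.244), LMO2 (-0.75, SE 0.22, adjusted p = 0.267), SOX7 (-0.67, SE 0.21, adjusted p = 0.308) and FLI1 (-0.51, SE 0.16, adjusted p = 0.312), each given as the log2 difference by edgeR. None of them passed in this fit, but calls for these genes changed with the setting. Without the filter on low counts all 4 passed in edgeR, with adjusted p of 0.0117 for TAL1, 0.0131 for LMO2, 0.0401 for SOX7 and 0.0511 for FLI1. By DESeq2, TAL1 (adjusted p = 0.0289) and SOX7 (adjusted p = 0.0956) passed. None of the 4 passed by limma voom (adjusted p of 0.226 to 0.284) or by edgeR with a single atoh1b-MO sample left out. DESeq2 called 8 of the 109 lower, against 1.4% of all genes, and 1 higher (HNF4A), against 2.82% of all genes. Without atoh1b-MO II, edgeR called 1 of the 109 lower (0.313% of all genes) and 3 higher (stab2, hbae3 and NDRG1, against 1.14% of all genes).

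Counted by the values themselves, all 3 atoh1b-MO samples were below both controls I and II in 26 of the 109 genes (23.9%, against 13.5% of the 10399 genes at the minimum), and above both in 4 (3.67%, against 19.3%). Those 4 were hbae3, HNF4A, npdc1a and a gene known only by its identifier. The 26 genes comprised 4 regulators of blood and vessel formation, 1 vessel product (SCARF1), 2 nephric genes, SOST and 18 genes without a role group. Controls I and II took part in choosing the genes, so these shares can follow in part from the choice. The counts also depended on single samples. Without atoh1b-MO V the first count was 54, and without atoh1b-MO II the second was 21. With a sample fewer the condition is easier to meet for any gene. The shares of all genes without these samples were not computed, so nothing is read from the higher counts. With CPM scaled by the trimmed mean of M-values (TMM) the second count was 2.

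With all 6 samples in the fit, 0 of 17874 genes were called by edgeR at an adjusted p below 0.1 (0%), and 1040 (5.82%) had an unadjusted p below 0.05, with 2.48% of all genes lower in the atoh1b-MO samples at that p. None of the 109 genes had an unadjusted p below 0.05, and their median log2 difference was 0.33. DESeq2 called 449 genes and limma voom 21 on the same samples, with 0 of the 109 genes among them. Control III chose the genes, so nothing is read from this fit about them.

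At the edge of the rule, the genes just inside the limit of 10% of the lower control were si:ch211-106h4.4 at 9.66%, hbae3 at 9.81% and CYP1A1 at 9.82%. Just outside lay the endothelial gene ecscr at 10.004%, a gene known only by its identifier at 10.2% and gfra1a, a receptor gene of the nephric list, also at 10.2%. A further 126 genes lay between 10% and 20% of the lower control. The lower control value of the genes just inside the minimum of 5 CPM was 5.30 CPM for CALCR, 5.30 CPM for si:dkey-121b10.7 and 5.35 CPM for XPNPEP2. Just outside it were tlr9 at 4.91 CPM, ponzr1 at 4.92 CPM and a gene named F2R at 4.98 CPM.

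The 109 genes were spread over all 25 numbered chromosomes of the table, with at most 9 on 1 chromosome (chromosome 1). Besides the drl cluster and the pair etsrp and fli1rs, a single further pair lay within 100 kb, baiap2l2a and nptxra on chromosome 3, with 24717 bases between them. Of the 109 genes, 26 overlapped another annotated gene, 10 on the same strand and 19 on the other. The median exon length was 2464 bases, beside 2622 bases for the 10399 genes at the minimum.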

How the data were processed

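RNAseq of FAC-sorted pax8:DsRed-positive cells was deposited for 3 control and 3 atoh1b-MO samples, grouped by their titles. The deposited values are raw counts per Ensembl gene made by the authors with GSNAP and featureCounts and not normalized. The study's methods name genome GRCz11, whereas the submitters' processing notes name GRCz10, featureCounts 1.5.3 and bcl2fastq 2.19.1. Positions are given as they stand in the deposited counts, and the build they belong to was not checked. The library preparation in the labels differs from that in the study's methods, and the use of strand in counting is not given in the sources used here. Uniquely aligned reads undercount near-identical genes. The 92 spike-in sequences held 0 counts and were left out. Symbols came from a gene table for 26433 of 32266 identifiers.

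CPM were counts divided by the column total. The floor of 3 counts corresponded to 0.0807 to 0.124 CPM. Controls I and II were compared with the atoh1b-MO samples by edgeR 4.0.16 (R 4.3.3, TMM scaling, filterByExpr, quasi-likelihood test), with p-values adjusted by Benjamini-Hochberg across every gene tested and a threshold of 0.1, the false discovery rate of the study. A second fit used all 6 samples. The SE of a log2 difference was derived from its F statistic. The labels give no clutch, so the clutch term of the study's model was not used. The samples are biological replicates per the study, and the p-values set the difference between groups against the spread between samples. DESeq2 1.42.0, limma 3.58.1 voom, other scalings and filters and leaving out each sample were alternatives, and the scripts were tested on simulated data.

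The members, marker lists, role groups and tests were chosen with earlier results of these data known. Genes named in full were members on a marker list, the 10 most abundant by mean CPM, the 5 with the highest and the 5 with the lowest atoh1b-MO level relative to controls I and II, called members, the 3 genes on each side of a threshold and transcription factors of listed families. Intervals are 95% Wilson intervals for shares and exact counting intervals for ratios, and cover counting error only, since PCR reads are not independent molecules.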

Additional observations from a re-analysis of the deposited data

How the results depend on the processing

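With 2 controls and 3 atoh1b-MO samples the number of calls depended on the setting, while the median levels of the 109 genes kept their order under all 4 alternatives tried (61.9% to 65.0% in atoh1b-MO II, 88.0% to 94.1% in IV and 106.7% to 116.7% in V). Of the 109 genes, 1 was called by edgeR, 9 without a filter on low counts and 9 by DESeq2, and leaving out each sample in turn gave 0 to 4. Over all genes, 110 were called, 488 without the filter, 776 by DESeq2 and 71 at an adjusted p below 0.05, and leaving out each sample gave 13 (without control I) to 260 (without atoh1b-MO II). The fit without the filter tested 24986 genes in place of 18397, and of its calls over all genes 157 were lower and 331 higher. DESeq2 size factors, library size alone and a minimum of 10 counts kept the count for the 109 genes at 1. The cause of these differences was not tested. With all 6 samples, leaving out each in turn gave 0 to 1 calls among the 109, the 1 without control III. At a limit of 20% in place of 10% the rule found 235 genes, and at 5% it found 48. The counts of genes with all atoh1b-MO samples below or above both controls, with alternatives chosen after seeing the data, ranged from 26 to 54 and from 2 to 21, where 54 was without atoh1b-MO V, 21 without atoh1b-MO II and 2 with TMM scaling. The shares of all genes under these alternatives were not computed. No fold change of a named gene that was recomputed changed sign, but the balance of calls among the 109 turned without atoh1b-MO II, from 1 lower and 0 higher to 1 lower and 3 higher.

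No paired analysis was possible because the groups share only the number II. With a single term for the samples numbered II (control II and atoh1b-MO II), 20 of the 109 genes (all lower) were called by edgeR. Of all 18397 genes tested in that fit, 713 were called, 255 lower and 458 higher. In that edgeR fit TAL1, LMO2, SOX7, FLI1 and PAX8, not called without the term, passed with adjusted p of 0.0020, 0.0015, 0.0046, 0.0078 and 0.0058. The labels give no clutch, so whether the samples numbered II belong together is not known. The deviation of control II from its group mean correlated with that of atoh1b-MO II at r = 0.36, with atoh1b-MO IV at -0.28 and with atoh1b-MO V at -0.21 across 10399 genes, which are not independent. Deviations from a group mean cancel within the group, so these correlations constrain one another and are not separate evidence.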

Other observations

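Of the 3 genes that met the thresholds but were left out, hnf1ba and hnf1bb were highest in atoh1b-MO IV within their group and cdh17 in atoh1b-MO V. The gene hnf1bb measured 870.4, 814 and 19.2 CPM in controls I, II and III and 650.3, 907 and 835 CPM in atoh1b-MO II, IV and V. Its paralog hnf1ba measured 303, 277 and 23.3 CPM in the controls and 214, 288 and 287 CPM in the atoh1b-MO samples, and cdh17 had 92.5, 106 and 5.86 CPM and 87.4, 128 and 166 CPM. The kidney gene wt1a stood at 15.0% of controls I and II in control III and did not meet the limit.

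Of the 11 lateral plate, blood and vessel markers at the minimum that missed the limit, 9 were highest in atoh1b-MO V, and HAND2 and GATA5 were highest in atoh1b-MO IV. HAND2 had 110.1, 159 and 136 CPM and GATA5 39.03, 72.4 and 63.1 CPM in atoh1b-MO II, IV and V. The embryonic beta globin gene hbbe3 measured 49.8, 55.2 and 5.96 CPM in controls I, II and III and 41.1, 73.5 and 124.7 CPM in atoh1b-MO II, IV and V. The haem synthesis gene alas2 had 16.9, 17.8 and 1.89 CPM and 12.8, 24.005 and 44.9 CPM, and the red cell factor klf17 had 346, 325 and 39.7 CPM and 245, 354 and 463 CPM. The gene klf17 stands on the epidermis and ionocytes list as well. The endothelial cadherin gene cdh5 had 17.8, 20.7 and 3.15 CPM and 13.9, 23.9 and 32.5 CPM. In hbbe3, alas2, klf17 and cdh5 atoh1b-MO II was below and atoh1b-MO IV and V were above controls I and II. Their part in the sorted cells was not tested, and they were chosen after their values were seen.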
